A study of Rattus norvegicus with 42 samples.

Results

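Between the 3rd and the 7th day of reloading, edgeR called no transcription start of the rat soleus as changed. It called 23.2% of the starts between the last day of unloading and the 1st day of reloading. DESeq2, the test that the study's methods name, called 6 starts between the 3rd and the 7th day. The comparison sets the 3 soleus libraries of recovery day 7 (R7, rats U12, U13 and U19) against the 3 of recovery day 3 (R3, rats U4, U5 and U16), which makes 6 of the 42 libraries of the series. It covers every deposited peak outside the mitochondrial genome, 9969 of 9971 peaks, of which 9844 had enough tags in soleus to be tested. The labels gave the libraries of each day.

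The study followed 21 mature Wistar rats, 3 in each of 7 groups, and took the soleus (slow muscle) and the extensor digitorum longus (EDL, fast muscle) of every rat. Controls moved freely, the groups D1, D3 and D7 had their hindlimbs unloaded by tail suspension for 1, 3 or 7 days, and the groups R1, R3 and R7 were unloaded for 7 days and then returned to their feet for 1, 3 or 7 days. R3 and R7 rats therefore shared the same unloading and differed in the length of recovery, and each group is a different set of animals, killed at its own time. RNA came from whole frozen muscle of 1 side, so a fall in the tags of a peak can be fewer cells of a type or less RNA per cell, which cannot be told apart.

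The soleus is a postural muscle that works against gravity nearly all the time, and it wastes quickly when the hindlimbs carry no weight. Reloading a wasted soleus strains its fibres, and an early phase of damage signalling and inflammation is followed by regrowth and a return towards the slow, oxidative fibre type. CAGE, short for cap analysis of gene expression, sequences capped 5′ ends of RNA, so each tag marks where a transcript began, and a cluster of such starts, called a TSS peak, reports the activity of 1 promoter or of 1 start region within it. Peaks are given here by their position on Rnor_6.0, since the files pair no peak with a gene and no annotation of this build was used. For the same reason the soleus could not be checked against its marker genes.

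The R3 libraries held 6562374 to 14852597 tags in peaks and the R7 libraries 3972844 to 10224617. The lowest of these 6 totals belonged to R7 rat U19, whose library ran in lane 6, while U12 and U13 and the R3 rats U5 and U16 ran in lane 5 and the R3 rat U4 in lane 4 (the lane is part of the library names). Across the log2 CPM (tag counts scaled to library size) of all tested peaks, U19 was nearest to a control library (r = 0.924), whereas the nearest library to U12 was R3 rat U4 (r = 0.930) and the nearest to U13 was R3 rat U16 (r = 0.940). No R7 library had another R7 library as its nearest. Peaks are not independent replicates, and these correlations run across them. The share of all tags that lay in the tested peaks was 73.1% to 89.7% at R3 and 76.4% to 90.4% at R7, and mitochondrial starts took 4.71% to 6.26% and 3.20% to 6.65% of the tags, so the groups overlapped in both measures. The share in tested peaks was lowest in U16 (73.1%) and U19 (76.4%) and lay between 88.2% and 90.4% in the other 4.

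edgeR's quasi-likelihood test, with all 21 soleus libraries in 1 fit and Benjamini-Hochberg adjustment, called 0 of 9844 peaks (0%) at an adjusted p below 0.05 and a change of more than 2.38-fold in either direction, the cutoff of the study's methods. The smallest adjusted p was 0.342. Without adjustment, 580 peaks (5.89%) had a p under 0.05, with 244 (2.48%) higher and 336 (3.41%) lower at R7. DESeq2, the test that the study's methods name with this cutoff, was run on the same libraries and called 6 peaks, 3 in each direction. They are described below with their values. In the same soleus fit, 2286 peaks (23.2%) were called between R1 and D7, 1242 (12.6%) between R3 and R1 and 0 between R7 and R3. All soleus D7 libraries ran in lane 3, all R1 libraries in lane 4 and all controls in lane 1. Lane and phase cannot be told apart in contrasts between these groups. The step from R1 to R3 held 272 peaks (2.76%) that rose and 970 (9.85%) that fell. Against controls, 162 peaks (1.65%) were called at R3 and 411 (4.18%) at R7. The comparisons with controls share the control libraries and are given only side by side. No R3 or R7 library ran in lane 1, so lane and phase cannot be told apart in any comparison of R3 or R7 with controls.

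The intervals of the fold changes show how much change could have been missed. The median standard error of the R7 minus R3 log2 fold change was 0.338, the median of the fold changes themselves was 0.02, and the median of their sizes was 0.25. The 95% interval lay wholly within 2.38-fold either way for 6378 peaks (64.8%) and wholly between −1 and 1 for 5062 peaks (51.4%). For the other 3466 peaks the interval reached past that size, so a change as large as the call requires was not excluded. The limit moved with abundance. Of 4079 peaks whose mean over the 6 libraries was under 10 CPM, 47.6% had an interval inside that range, against 77.0% of the 4858 peaks between 10 and 100 CPM and 77.0% of the 907 peaks over 100 CPM.

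The spread between the libraries of a group was wider at R7 than at R3 by its median over peaks, a difference given without a test. The median standard deviation of log2 CPM within a group was 0.465 at R7, 0.320 at R3 and 0.281 in the controls. R7 held the library with the fewest tags, U19, alone in lane 6, while all controls ran in lane 1. The part of depth and lane in these spreads was not tested. The distance of each library from the control mean, taken as the root mean square of the log2 differences over all tested peaks, was 0.872 ± 0.0797 (SD, n = 3) at R3 and 1.02 ± 0.228 (SD, n = 3) at R7, and was 0.614 ± 0.0885 (SD, n = 3) for control libraries against the mean of the other two. Within R7 it ran from 0.848 in U19 through 0.926 in U13 to 1.28 in U12, which was the highest of the 6. The difference of 0.144 was within the spread of the groups (two-sided exact permutation test, p = 0.5, where the smallest p that 3 against 3 allows is 0.1).

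**Figure D1:**
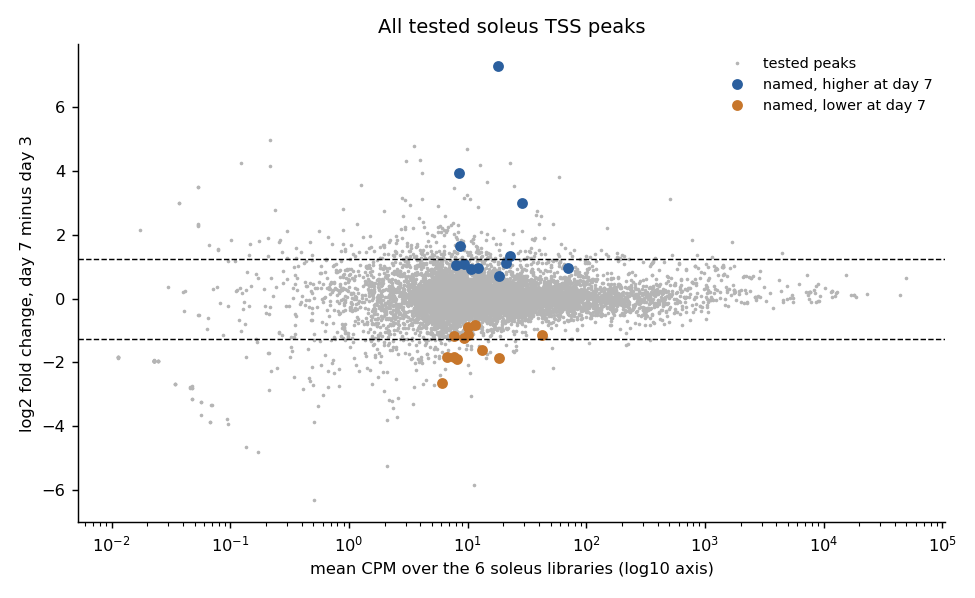
Log2 fold change from recovery day 3 to day 7 (vertical axis) against the mean CPM of the 6 soleus libraries (horizontal log10 axis), 1 point per tested peak with any tag in these libraries (9823 of 9844). Dashed lines mark a 2.38-fold difference either way, coloured points are the 24 peaks named in the text, and none of the points outside the lines passed the adjusted threshold of the edgeR test.

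Peaks whose 3 R7 libraries all lay on 1 side of the 3 R3 libraries numbered 283 above (2.87%) and 458 below (4.65%). From those with at least 10 CPM in either group (188 above, 254 below), the 12 with the smallest unadjusted p in each direction are named H1 to H12 (higher at R7) and L1 to L12 (lower at R7). None of the 24 was called by edgeR, so they are a description of where the groups stood furthest apart, and no direction is claimed for them. Their adjusted p ran from 0.342 to 0.640 for the higher peaks and from 0.342 to 0.599 for the lower ones.

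Peak H1 (chr7:11383065-11383246, plus strand) stood at 3.16, 10.6 and 5.40 CPM in the R3 rats U4, U16 and U5. In the R7 rats U12, U13 and U19 it stood at 27.7, 40.5 and 86.7 CPM. Every R7 library was above every R3 library, and the log2 fold change was 3.01 (SE 0.586, edgeR adjusted p = 0.342), or 2.41 without U19 and 2.09 in lane 5. Its R1 mean was 56.1 CPM and its control mean 9.01 CPM, so the group means went up at R1, were near the control level at R3 and were up again at R7. DESeq2 called this peak (log2 fold change 3.08, adjusted p = 0.00103). In the EDL of the same rats the means were 24.4 CPM at R3 and 67.2 CPM at R7, with a log2 fold change of 1.47 (SE 0.588) and an adjusted p of 0.914 by edgeR. There U4, U16 and U5 had 8.22, 51.6 and 13.4 CPM and U12, U13 and U19 had 82.4, 79.4 and 39.9 CPM, so U16 lay above U19.

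Peak H2 (chr1:179010169-179010313, minus strand) read 14.3, 15.8 and 9.65 CPM in U4, U16 and U5, and 27.6, 32.9 and 25.1 CPM in U12, U13 and U19. The R7 values were close to each other and all above R3, with a log2 fold change of 1.12 (SE 0.264). DESeq2 gave it a log2 fold change of 1.16 and an adjusted p of 0.00973, short of a call by the fold cutoff. It had its highest group mean at R1, 44.0 CPM, and its control mean was 8.75 CPM. H7 (chr13:85443670-85443891, minus strand) shared that order, with 84.1 CPM at R1, 13.8 ± 1.91 (SD, n = 3) at R3, 22.7 ± 2.65 (SD, n = 3) at R7 and 5.55 CPM in controls. H12 (chr7:140356154-140356251, minus strand) had 55.8 CPM at R1, 12.9 ± 2.39 (SD, n = 3) at R3 and 33.0 ± 14 (SD, n = 3) at R7. In H12 the R7 rat U12, at 16.9 CPM, lay just above the highest R3 library, at 15.3 CPM. H3 (chr20:45342864-45342935, minus strand) also had its highest group mean at R1, with 13.9 CPM there, 5.14 CPM at R3 and 10.9 CPM at R7.

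A different order held for H4, H5, H6, H8 and H10, whose highest group mean of all 7 phases was that of R7. Peak H4 (chr19:55300227-55300498, minus strand) read 8.24, 8.77 and 7.83 CPM at R3 in U4, U16 and U5 and 16.3, 17.4 and 14.8 CPM at R7 in U12, U13 and U19. A spread that is small beside the gap, as here, is what the naming rule selects for. The log2 fold change was 0.97 (SE 0.241, edgeR adjusted p = 0.582), and the means of the other 5 phases lay between 9.05 and 11.5 CPM. H10 (chr6:21796958-21797208, minus strand) read 4.67, 3.87 and 3.98 CPM at R3 and 12.6, 15.5 and 10.9 CPM at R7, with a log2 fold change of 1.65 (SE 0.494). It was lowest at R1, at 0.452 CPM, and its control mean was 6.25 CPM. H8 (chr13:105140771-105141089, minus strand) had means of 7.39 CPM at R3 and 14.1 CPM at R7, and H6 (chr10:109727510-109727655, minus strand) of 6.01 and 12.8 CPM, where the R1 mean was nearly the same, 12.7 CPM.

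H5 (chr6:136541253-136541283, minus strand) was high in 1 of the 6 R3 and R7 rats. It read 105 CPM in U13, while U12 and U19 had 0.729 and 0.643 CPM and the R3 rats 0.137, 0.446 and 0.135 CPM. The fitted log2 fold change of 7.30 (SE 1.90) therefore rested on 1 library, and was 1.60 without it. The EDL of U13 held 457 tags of this peak, against 1 to 11 tags in the EDL of the other 5 rats. At D3 the peak was high in rat U9 alone, with 626 tags (36.8 CPM) in soleus and 516 tags in EDL, so both muscles of U13 and of U9 carried it. H9 (chr3:112309198-112309785, minus strand) went from 47.4 CPM at R3 to 93 CPM at R7, close to its control mean of 90.05 CPM, and was the 1 peak of the 12 whose R7 mean was nearer to the controls than its R3 mean on the log2 scale. H11 (chr5:24301057-24301184, minus strand) read 2.47, 0.595 and 0.270 CPM at R3 in U4, U16 and U5 and 26.7, 10.4 and 10.3 CPM at R7 in U12, U13 and U19. Its log2 fold change of 3.95 (SE 1.19) became 5.31 without U4, 3.36 without U5, 3.31 without U12 and 5.53 in lane 5. The R3 libraries of U4, U16 and U5 held only 18, 4 and 4 tags of this peak. Its level also varied within other phases, from 0 to 6.42 CPM in controls and from 2.46 to 33.0 CPM at D3.

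Among the lower peaks, L1 (chr10:104952323-104952520, plus strand) read 14, 10.1 and 7.36 CPM in the R3 rats U4, U16 and U5. The R7 rats U12, U13 and U19 had 1.98, 1.33 and 1.61 CPM. The R7 libraries lay together and well below R3, with a log2 fold change of −2.66 (SE 0.495), an adjusted p of 0.342 by edgeR and a call by DESeq2 (adjusted p = 0.00103). The peak had its highest group mean at R1, 17.9 CPM, against 4.29 CPM in controls. A peak on the same strand, with a summit within 50 kb, at chr10:104975873-104976046, which falls outside the naming rule because of its low level, had the same order. It stood at 9.20, 7.14 and 6.07 CPM at R3 and 1.35, 0.333 and 2.57 CPM at R7, with 12.7 CPM at R1 and 3.50 CPM in controls. Its log2 fold change was −2.54 (SE 0.552), and DESeq2 called it as well (adjusted p = 0.00685). The third tested peak of that strand within the 50 kb, at chr10:104997110-104997272, had 24.97 CPM at R1, 13.8 CPM at R3 and 6.85 CPM at R7, with overlapping R3 and R7 libraries and a log2 fold change of −0.95 (SE 0.507).

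L2 (chr4:156751983-156752192, plus strand) was the other lower peak called by DESeq2 (log2 fold change −1.86, adjusted p = 0.0145). It read 49.3, 16.5 and 21.5 CPM at R3 in U4, U16 and U5, and 8.95, 9.21 and 5.14 CPM at R7 in U12, U13 and U19. The groups did not overlap, but U4 stood apart within R3, and the edgeR log2 fold change of −1.87 (SE 0.400) became −1.26 without it and −1.09 in lane 5. The R3 mean was the highest of the 7 phases and the R7 mean of 7.77 CPM the lowest, with 11.1 CPM in controls. In EDL the means went from 17.1 CPM at R3 to 5.72 CPM at R7, a log2 fold change of −1.63 (SE 0.660), with an adjusted p of 0.925 by edgeR. The EDL libraries ran from 2.69 to 44.0 CPM at R3 (SD 23.3) and from 4.77 to 7.07 CPM at R7. The days thus overlapped in EDL, and the R3 mean rested mostly on its highest library.

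L3 (chr16:20686140-20686394, minus strand) read 9.75, 18.1 and 11.1 CPM at R3 and 4.16, 5.99 and 6.75 CPM at R7. Its R1 mean was 15.1 CPM and its control mean 6.68 CPM, so the R7 libraries stood at about the control level. DESeq2 gave it a log2 fold change of −1.22 and an adjusted p of 0.0375, also short of a call by the fold cutoff. L8 (chr2:227207139-227207428, minus strand) and L12 (chr8:70568069-70568350, plus strand) were also nearer to the controls at R7 than at R3. L8 had 36.7 CPM at R1, 10.3 CPM at R3, 3.13 CPM at R7 and 2.39 CPM in controls. At R3 it read 6.32 and 7.28 CPM in U4 and U16 and 17.4 CPM in U5, and its log2 fold change of −1.84 (SE 0.474) became −1.21 without U5 and −2.48 in lane 5. L12 had 10.6 CPM at R3, 4.73 CPM at R7 and 4.62 CPM in controls. With L2, these were the 4 of the 12 lower peaks with that order.

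The other 8 lower peaks, L1 among them, stood further from the control level at R7 than at R3 on the log2 scale. In L4 (chr10:95696919-95697353, minus strand) the R3 rats had 11.8, 13.1 and 16.7 CPM and the R7 rats 6.87, 5.44 and 6.75 CPM, with 17.1 CPM in controls and a log2 fold change of −1.14 (SE 0.267). L6 (chr8:26651178-26651539, plus strand) had 13 CPM at R3, 6.99 CPM at R7 and 14.1 CPM in controls. L9 (chr18:52559807-52560241, minus strand) had 11.7, 3.57 and 17.4 CPM in these groups and 41.5 CPM at D7. L11 (chr1:72425628-72425878, plus strand) had 12.5 CPM at R3, 3.67 CPM at R7 and 13.7 CPM in controls, and its log2 fold change of −1.88 (SE 0.499) became −2.54 in lane 5. L5 (chr16:10942966-10943146, minus strand), L7 (chr2:211638640-211638866, minus strand) and L10 (chr4:85551450-85551900, plus strand) went from 20.03 to 6.62, from 14.7 to 8.29 and from 58.1 to 26.8 CPM. The R7 mean was the lowest of all 7 phases in 8 of the 12 lower peaks, which a choice of peaks low at R7 favours.

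**Figure D2:**
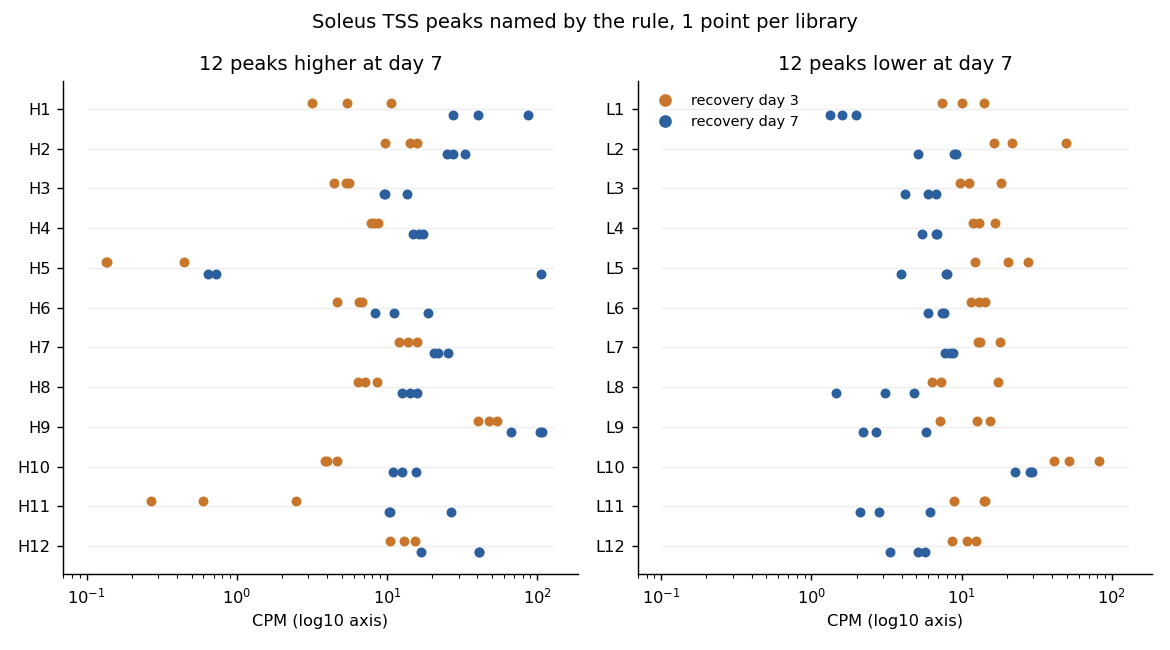
Level of the 24 named soleus peaks in CPM (horizontal log10 axis), 1 point per library, with recovery day 3 in orange and day 7 in blue. The groups do not overlap in any row because the naming rule requires it, and H5 owes its R7 mean to the 1 library at 105 CPM.

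**Figure D3:**
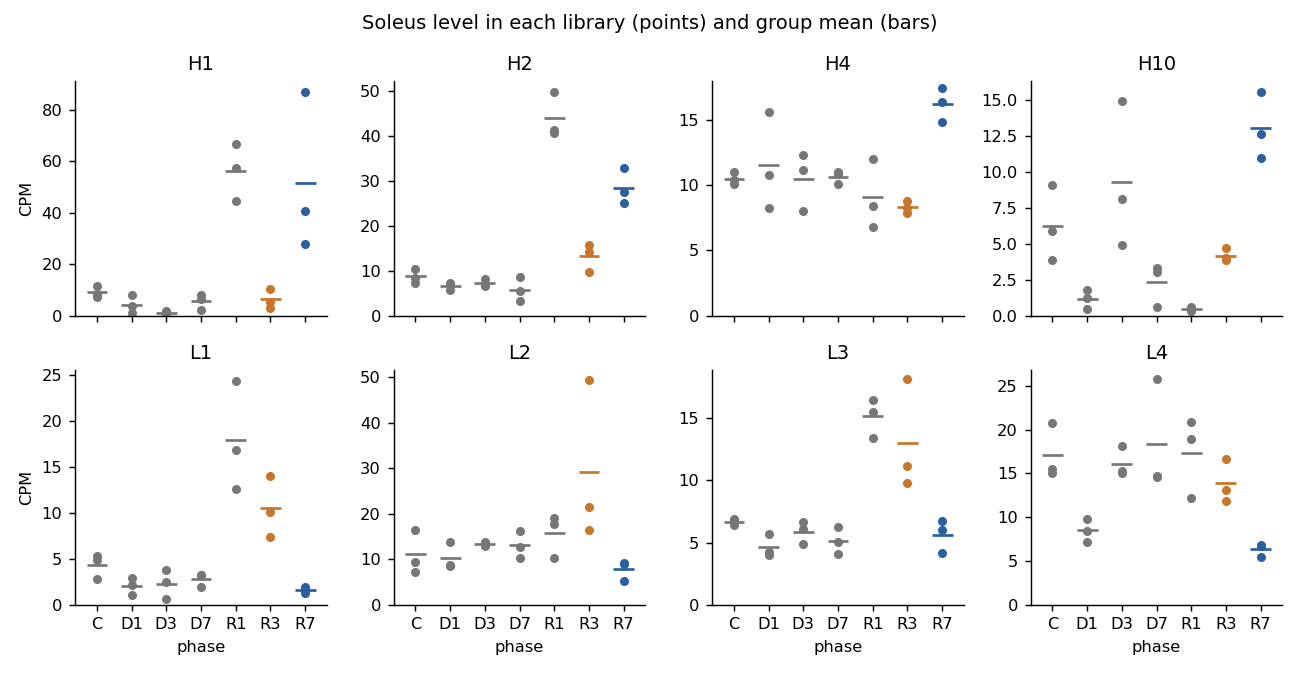
Soleus level in CPM (vertical axis) of 8 named peaks in controls (C), during unloading (D1, D3, D7) and during recovery (R1, R3, R7), with 1 point per library and a bar at the group mean. H1, H2, L1 and L3 have their highest mean at R1, H4 and H10 at R7, L2 at R3 and L4 at D7.

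The 12 higher peaks lay on 9 chromosomes and the 12 lower ones on 7, and their widths were 31 to 588 nt and 181 to 451 nt. The start used most within a peak was the same nucleotide in the pooled R3 tags and the pooled R7 tags for 10 of the 12 higher and 8 of the 12 lower peaks. In H12, 91.8% of the R3 tags and 88.5% of the R7 tags began at that 1 nucleotide, while in L7 the most used start took 8.47% and 10.6%. Where the start differed, some pooled counts were low, with 6 R3 tags in H5 and 36 R7 tags in L1. No share over all peaks was computed for this pooled measure. Over the 3572 peaks with at least 50 tags in each of the 3 control, 3 R3 and 3 R7 libraries, a library of R3 and a library of R7 used the same leading start in 68.1% to 79.6% of peaks (9 pairs, median 75.4%). Pairs within R3 did so in 72.9% to 78.8% and pairs within R7 in 69.5% to 80.6%, so the pairs across the 2 days lay in about the same range as pairs within a day. In 15 peaks (0.420%) the 3 libraries of each day had 1 leading start and it differed between the days, by up to 46 nt.

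At a higher peak called by DESeq2 outside the naming rule, and at its neighbours, the 3 R7 rats stood far from each other. At chr1:215834664-215834763 on the minus strand the R3 rats U4, U16 and U5 had 10.02, 7.88 and 6.14 CPM. The R7 rats U12, U13 and U19 had 280, 50.2 and 2.57 CPM, so U19 lay below every R3 library. The log2 fold change was 3.80 (SE 1.03), with an adjusted p of 0.599 by edgeR and 0.0375 by DESeq2. All 4 other tested peaks of that strand within 50 kb had the same arrangement, with U12 highest and U19 lowest of the 6 libraries. They were chr1:215829345-215829798, chr1:215830175-215830339, chr1:215830608-215830877 and chr1:215836699-215836782, with 169, 76.0, 14.7 and 39.7 CPM in U12 and 2.25, 2.89, 0 and 0.964 CPM in U19. At the other higher peak that DESeq2 called, chr6:133658922-133658963 on the plus strand, U12 and U13 had 61.6 and 66.3 CPM, U19 had 1.29 CPM and the R3 rats 2.61, 4.01 and 0.607 CPM. Without U19, edgeR called that peak (log2 fold change 4.79, adjusted p = 0.0383).

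Peaks called in other comparisons form lists from the unloading and reloading phases, whose R3 and R7 levels are described here, with no member called between the days. The 4 lists from R1 or D1 against controls were added after seeing the data. The lists were taken from contrasts that hold neither R3 nor R7 libraries, so their choice does not by itself fix the R7 minus R3 values. The R3 rat U4 shared lane 4 with all R1 libraries, and no R7 library ran there. The R1 lists are therefore not free of lane in their R7 minus R3 values. Lists chosen against controls used the same control libraries, so their levels relative to controls are not free of that choice. Of all tested peaks, 52.9% had a log2 fold change above 0. The 1447 peaks (14.7%) that rose at R1 against controls had a median R7 minus R3 log2 fold change of 0.04, with 53.6% above 0. Their median stood 0.62 above controls at R3 and 0.61 at R7 on the log2 scale, and 70 (4.84%) had all R7 libraries above R3 and 52 (3.59%) all below, against 2.87% and 4.65% of all tested peaks. With 1 rat left out at a time their median ran from −0.086 to 0.078, so it took either sign. The 1531 peaks (15.6%) that rose at R1 against D7 had a median of 0.08, with 57.3% above 0, which became −0.093 without U12, where the median of all tested peaks was −0.030. The 755 peaks (7.67%) that fell at R1 against D7 had a median of 0.14, with 61.6% above 0, but 51 (6.75%) had all R7 libraries below R3 and 10 (1.32%) all above, against 4.65% and 2.87% of all tested peaks. With an unadjusted p under 0.05 there were 48 lower (6.36%) and 29 higher (3.84%), against 3.41% and 2.48% of all tested peaks. The median of these 755 peaks was −0.25 without U19, 0.41 without U12 and −0.28 with the lane 5 libraries alone, so no direction between the days is given for them.

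The 847 peaks (8.6%) that fell at R1 against controls had a median of 0.31, with 73.2% above 0, and 47 (5.55%) had an unadjusted p under 0.05 in the higher direction and 20 (2.36%) in the lower, against 2.48% and 3.41% of all tested peaks. All R7 libraries lay above R3 in 24 (2.83%) and below in 28 (3.31%), against 2.87% and 4.65% of all tested peaks. Their median in a library, relative to the controls, was −0.96, −0.66 and −0.93 in the R3 rats U4, U16 and U5 and −1.34, −0.51 and −0.12 in the R7 rats U12, U13 and U19. U12 lay below all R3 libraries and the other 2 above them. Without U19 the median was −0.0032, without U12 it was 0.56, and with the lane 5 libraries alone it was −0.02. The most abundant member, chr19:56676367-56677617 on the minus strand, read 39512, 40456 and 36060 CPM at R3 and 50644, 82007 and 48697 CPM at R7, above R3 in all 3 rats, with 17169 CPM at R1 and 53473 CPM in controls. Its log2 fold change was 0.64 (SE 0.351), with an adjusted p of 0.872 by edgeR.

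The contrast of D7 with controls gave small lists. Only 5 peaks (0.0508%) had fallen at D7 against controls, and all 5 had a higher mean at R7 than at R3, with a median log2 fold change of 0.93. The list median in a library, relative to controls, was −0.24, −0.23 and −0.35 in U4, U16 and U5 and 0.44, 0.69 and 0.36 in U12, U13 and U19, so the days did not overlap. Leaving out each of the 6 rats in turn gave medians between 0.71 and 1.31. The peak at chr1:50446338-50446654 (plus strand) read 17.4, 16.4 and 10.1 CPM at R3 and 34.6, 55.3 and 27 CPM at R7, against 0.945 CPM at D7 and 28.4 CPM in controls. Its log2 fold change was 1.43 (SE 0.648), with an adjusted p of 0.841 by edgeR. At chr15:4069082-4069615 (plus strand) the values were 178, 83.7 and 94.8 CPM at R3 and 263, 515 and 125 CPM at R7, with overlap in U19, against 2.93 CPM at D7 and 76.2 CPM in controls. At chr16:2142254-2142574 (minus strand) the means were 11.5 CPM at R3 and 21.9 CPM at R7, against 18.8 CPM in controls, with U12 inside the R3 range.

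The other 2 of the 5 had smaller differences. At chr16:73683559-73684154 (minus strand) the R3 rats had 81.7, 138 and 127 CPM and the R7 rats 144, 165 and 175 CPM, so the R7 mean of 161 CPM lay near the control mean of 164 CPM. At chr2:96668137-96668295 (minus strand) the means were 50.5 CPM at R3, 69.5 CPM at R7 and 49.6 CPM in controls. The 7 peaks (0.0711%) that rose at D7 had a median of −0.44, and 6 of the 7 had a lower fitted level at R7. The list median of each library was 1.00, 0.41 and 0.39 in U4, U16 and U5 and 0.19, −0.21 and 0.36 in U12, U13 and U19, so U4 stood apart and U19 lay next to U16 and U5. Without U4 the median difference was −0.032. The peak of these 7 whose days did not overlap, chr10:58972585-58973125 (minus strand), read 15.2, 24.5 and 38.5 CPM at R3 and 13.6, 11.1 and 10.3 CPM at R7, against 62.2 CPM at D7 and 15.2 CPM in controls, with a log2 fold change of −1.16 (SE 0.334) and an adjusted p of 0.606 by edgeR.

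The 84 peaks (0.853%) that rose after 1 day of unloading had a median of −0.30, with 21 of 84 above 0, against a median of 0.02 and 52.9% for all tested peaks. Of these, 13 (15.5%) had all R7 libraries below R3, against 4.65% of all tested peaks, and 2 (2.38%) all above. Their median stood 0.10 above controls at R3 and 0.32 below at R7 on the log2 scale. The list median of each library was 0.06, −0.16 and 0.21 in U4, U16 and U5 and −0.35, −0.41 and −0.02 in U12, U13 and U19, so U19 lay within the R3 range. The most abundant member, chr2:198682987-198683567 (plus strand), read 133, 122 and 193 CPM at R3 and 110, 63.7 and 95.1 CPM at R7, with 154 CPM in controls, a log2 fold change of −0.74 (SE 0.389) and an adjusted p of 0.869 by edgeR. The 110 peaks (1.12%) that fell after 1 day of unloading had a median of 0.01, between −0.17 and 0.11 with 1 rat left out. The 715 peaks higher in soleus than in EDL in controls (7.19% of the peaks tested there) had a median of 0.05, between −0.20 and 0.18 with 1 rat left out. Of the 584 lower in soleus (5.87%), 486 were tested in soleus, with a median of 0.00.

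**Figure D4:**
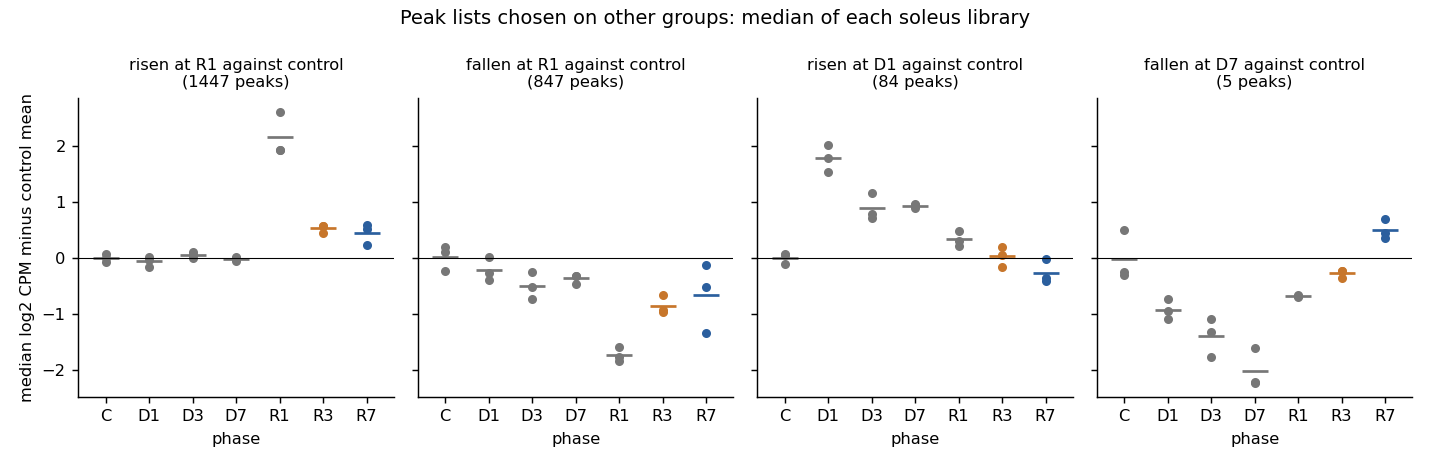
Median log2 CPM of 4 peak lists in each soleus library, relative to the control mean (vertical axis, each control against the other two), across the 7 phases (horizontal axis), with bars at the group means. The lists were chosen on groups other than R3 and R7 but against these same controls. The R7 libraries of the 2nd panel spread from −1.34 to −0.12, and those of the 4th panel lie above all R3 libraries.

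The EDL of the same rats gave the comparison in a fast muscle, with CPM scaled within each muscle. In EDL the R3 rats U16 and U5 and the R7 rat U12 ran in lane 5. The R3 rat U4 and the R7 rats U13 and U19 ran in lane 6, so U4 and U13 had their muscles in different lanes. The lane was not in the EDL fit, and its part in the EDL calls was not tested. edgeR called 2 of 9341 peaks (0.0214%) between R7 and R3, and both fell. Without U4, U12 or U13 it called 0, without U19 1, and without U16 or U5 3. DESeq2 called 19, of which 1 rose and 18 fell. E1 (chr13:104660482-104660627, plus strand) read 21.3, 15.0 and 10.8 CPM in the EDL of U4, U16 and U5 and 3.33, 3.41 and 3.12 CPM in that of U12, U13 and U19 (log2 fold change −2.26, SE 0.331, adjusted p = 0.0150). In soleus the same rats had 19.1, 5.95 and 8.03 CPM and 8.22, 5.44 and 8.35 CPM, so the days overlapped there. E2 (chr13:108590444-108590656, minus strand) read 52.9, 35.3 and 104 CPM at R3 and 4.58, 2.39 and 3.51 CPM at R7 in EDL (log2 fold change −4.24, SE 0.704, adjusted p = 0.0396), against at most 1.55 CPM in any of the 6 soleus libraries. Of the named soleus peaks, 11 higher and 11 lower ones were tested in EDL, where 1 and 2 had an unadjusted p under 0.05, against 446 of the 9341 peaks tested there.

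A fit of all 42 libraries compared the R7 minus R3 change of soleus with that of EDL through an interaction term. It called 1 of 9944 peaks (0.0101%), I1 at chr2:172342342-172342492 on the plus strand. In soleus I1 read 8.92, 5.05 and 12.6 CPM in U4, U16 and U5 and 12, 14.4 and 19.6 CPM in U12, U13 and U19. In EDL the same rats had 3.63, 3.59 and 2.69 CPM and 0, 0 and 0.312 CPM, from 15, 11 and 10 tags and 0, 0 and 4 tags, so the size of the fitted difference rests on few tags. The soleus libraries overlapped between the days and the EDL libraries did not. The difference of the log2 fold changes, soleus minus EDL, was 4.92 (SE 0.878, adjusted p = 0.0318 by edgeR). With the rat as a replicate block it was 5.29 (SE 0.816, adjusted p = 0.0362), and with the lane in the fit 0 peaks were called. DESeq2 called 6 peaks in the interaction, all with the higher change in soleus, I1 among them (5.03, adjusted p = 0.0034). EDL controls also had a low level of this peak, 0.241 ± 0.152 CPM (SD, n = 3), against 6.29 ± 1.51 CPM (SD, n = 3) in soleus controls. The other EDL means were 3.69, 3.09, 4.47, 3.46 and 3.30 CPM at D1, D3, D7, R1 and R3, and 0.104 CPM at R7.

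**Figure D5:**
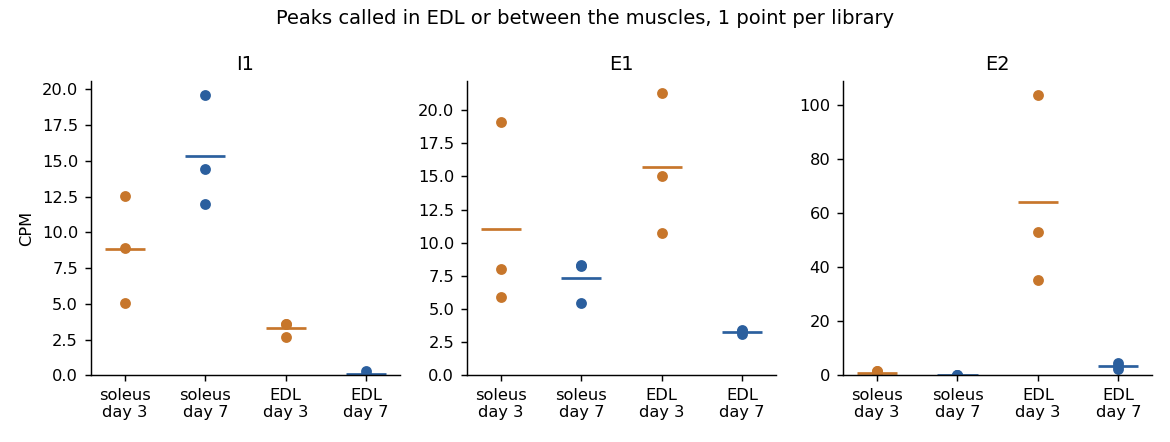
Level in CPM (vertical axis) of the peaks I1, E1 and E2 in soleus and EDL on recovery days 3 and 7, with 1 point per library and a bar at the mean. E1 and E2 are lower at day 7 in EDL, where they were called, and I1 is the peak whose change differed between the muscles.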

How the data were processed

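Counts were taken as the authors deposited them. Per the study's methods, 50 nt single-end reads of nAnT-iCAGE libraries were trimmed with Trimmomatic and aligned to Rnor_6.0 with STAR, with multimapping reads allowed. The submitters' processing notes name Trimmomatic 0.38, BWA and HISAT2 instead, so the aligner behind the deposited counts is not settled. If multimapping reads were kept, near-identical copies can share tags. The counts are raw tags summed over 9971 TSS peaks. The 42 columns of normalized values were not used. Start positions within peaks were read from the deposited count files of the control, R3 and R7 soleus libraries, and the tags of the 24 named peaks were equal to the table in all 144 cases.

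Here, edgeR 4.0.16 (R 4.3.3) tested counts after its filter on low counts with TMM factors, all 21 soleus libraries in 1 fit (21 for EDL, 42 for the interaction). The standard error is the log2 fold change divided by the square root of F, and log2 CPM used a prior count of 2. Calls needed an adjusted p below 0.05 together with a change beyond 2.38-fold. Named peaks are the 12 called peaks of each direction with the largest change, with groups that do not overlap and at least 10 CPM, filled by the smallest unadjusted p where fewer were called, as here. Peaks named outside this rule (those called by DESeq2 1.42.0 or under another alternative, their neighbours within 50 kb, and members of lists) were chosen after their values were seen. The members and lists were chosen with earlier results of these data known. The planned gene lists and cell type markers could not be used without an annotation of this build. The labels give separate rats as replicates.

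The animal number marks both muscles of 1 rat. Deviations of the muscles from their group means correlated with r between −0.178 and 0.529 in the 6 rats of R3 and R7, over 0.1 in 5, and the rat was a block in the interaction alone, since phases are different rats. The tests were tried on simulated data first. Other calculations used Python 3.11.15, numpy 2.4.6, pandas 2.3.3 and matplotlib 3.10.9.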

Additional observations from a re-analysis of the deposited data

Results flagged for a closer look

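The change from R3 to R7 differed between soleus and EDL at 1 peak, I1 (chr2:172342342-172342492, plus strand), by 4.92 on the log2 scale (edgeR's interaction test, SE 0.878, adjusted p = 0.0318). With the lane in the fit no peak passed the interaction test, and the part of the lane in this difference was not tested further. Dixon's test for an outlying sample was not applied, since each group held 3 rats.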

How the results depend on the processing

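The soleus count of 0 was unchanged with tag totals, with DESeq2-type size factors, without the filter on low counts, with the 6 libraries alone, with the lane 5 libraries alone, in the fit of 42 libraries with or without the lane, with thinned libraries, without the fold cutoff, and with same-strand peaks within 10 kb summed (7709 loci tested, smallest adjusted p 0.199, an alternative added after seeing the data). DESeq2 called 6 peaks and the 21-library fit with the lane 2, both lower. Leaving out 1 rat gave 0 to 2 calls, the 2 without U19 (chr6:133658922-133658963 higher, chr8:104600998-104601134 lower). Tag totals moved the median of all peaks to −0.13. The cause was not tested.

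The paired fit of the muscles, with the rat as a replicate block, called 1 peak in the interaction, as without it. The lane in that fit gave 0 and DESeq2 6. In EDL DESeq2 called 19 peaks, and leaving out 1 rat gave 0 to 3. The median of the peaks fallen at D7 was 0.71 with tag totals and 1.17 in lane 5, and 0.71 to 1.31 with 1 rat left out. For those risen at D7 it was −0.59 to −0.032 with 1 rat left out. The median of peaks lower in soleus than EDL was −0.20 in lane 5. For the peaks risen at D1 it was −0.43 to −0.23 with 1 rat left out, −0.47 with tag totals and −0.20 without the fold cutoff on the list. For the 24 named peaks, 213 combinations of a peak and a setting kept the direction without a call. The other 3, all by DESeq2, kept it with a call. The naming rule requires groups that do not overlap, which largely fixed the direction in advance, so keeping it is no support. DESeq2's adjusted p was also under 0.05 for H2 (0.00973) and L3 (0.0375), inside the fold cutoff, and DESeq2 gave H5 no adjusted p. Intervals were widest for the peaks of low abundance.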
